A study of Homo sapiens with 6 samples.

Results

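Heat shock proteins and J-domain chaperones were defined as the protein-coding genes whose symbols start with HSPA, HSPB, HSPD, HSPE, HSPH, HSP90, DNAJA, DNAJB or DNAJC, which gave 76 members among 62753 genes in the table, of which 20069 were protein-coding. Their RNA levels were compared between 3 WT and 3 sgPARP1 libraries of a line labelled HepG2, a human hepatocellular carcinoma line, to ask what loss of PARP1 does to these cells. PARP1 is the enzyme that makes most of the cell's poly(ADP-ribose), and sgPARP1 cells carry a knockout of its gene made with CRISPR-Cas9. The labels name no treatment, no heat exposure and no other allele in either group. Nothing in them tells if libraries of a group were separate cultures, or if the knockout line was 1 clone or a mixture, so each p-value reflects variation between libraries that may be technical alone.

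Heat shock proteins bind unfolded or partly folded proteins. HSP70 proteins hold short exposed stretches in cycles of ATP binding and hydrolysis. J-domain proteins of classes A, B and C switch on this hydrolysis, and many of them also bring clients to HSP70. HSP110 proteins release the ADP so that a new cycle starts. HSP90 acts later on clients such as kinases and steroid receptors, HSP60 with HSP10 folds proteins inside mitochondria, and small heat shock proteins hold aggregating proteins without using ATP. Heat shock factor HSF1 switches on a set of these genes through heat shock elements, arrays of the unit GAA and its reverse complement TTC. Chaperones of the endoplasmic reticulum answer instead to the unfolded protein response, in part through the endoplasmic reticulum stress element.

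The start regions of 7 members show these elements: 5 of the genes that rose below, and HSP90AA1 and HSPA5 as abundant members with the 2 kinds of element that did not pass the test. These windows were chosen by the outcome of the test and by holding an element, so they do not link the elements to the rises. They run 5′ to 3′ on the gene's strand, from 250 bases before to 50 bases after the RefSeq start of transcription on GRCh38.p14. Capitals mark heat shock element pairs (GAANNTTC or TTCNNGAA) in 6 of them and the stress element (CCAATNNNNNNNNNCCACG) in HSPA5. Where RefSeq gave several windows for a gene, the one with the most matches is shown, which applies to DNAJB1, DNAJB4 and HSP90AA1. Windows lie at chr11:123062087-123062386 (minus strand), chr9:33025023-33025322 (plus), chr19:14518348-14518647 (minus), chr1:78004689-78004988 (plus), chr12:119178681-119178980 (plus), chr14:102086995-102087294 (minus) and chr9:125241294-125241593 (minus).
HSPA8: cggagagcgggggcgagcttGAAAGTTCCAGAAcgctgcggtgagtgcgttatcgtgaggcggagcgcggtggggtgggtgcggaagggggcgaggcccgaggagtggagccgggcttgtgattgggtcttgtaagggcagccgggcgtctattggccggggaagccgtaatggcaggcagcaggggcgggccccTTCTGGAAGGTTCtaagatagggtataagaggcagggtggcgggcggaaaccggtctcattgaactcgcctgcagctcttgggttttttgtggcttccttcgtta
DNAJA1: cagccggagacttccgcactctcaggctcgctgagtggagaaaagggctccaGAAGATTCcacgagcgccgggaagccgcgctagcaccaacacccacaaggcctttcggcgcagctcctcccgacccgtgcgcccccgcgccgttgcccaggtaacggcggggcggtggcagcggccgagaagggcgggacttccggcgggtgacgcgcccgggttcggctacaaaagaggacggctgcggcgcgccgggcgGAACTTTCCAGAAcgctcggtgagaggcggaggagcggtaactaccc
DNAJB1: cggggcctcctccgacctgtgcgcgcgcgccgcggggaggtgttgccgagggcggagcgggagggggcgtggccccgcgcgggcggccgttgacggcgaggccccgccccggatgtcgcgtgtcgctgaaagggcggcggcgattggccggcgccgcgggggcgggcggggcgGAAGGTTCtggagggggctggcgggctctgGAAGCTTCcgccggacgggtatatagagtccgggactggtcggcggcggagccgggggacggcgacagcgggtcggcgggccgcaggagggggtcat
DNAJB4: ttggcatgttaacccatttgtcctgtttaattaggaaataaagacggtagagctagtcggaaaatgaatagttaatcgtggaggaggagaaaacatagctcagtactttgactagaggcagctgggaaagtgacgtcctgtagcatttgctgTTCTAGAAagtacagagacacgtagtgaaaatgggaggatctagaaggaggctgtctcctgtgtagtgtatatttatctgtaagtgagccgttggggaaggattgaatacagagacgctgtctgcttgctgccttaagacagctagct
HSPB8: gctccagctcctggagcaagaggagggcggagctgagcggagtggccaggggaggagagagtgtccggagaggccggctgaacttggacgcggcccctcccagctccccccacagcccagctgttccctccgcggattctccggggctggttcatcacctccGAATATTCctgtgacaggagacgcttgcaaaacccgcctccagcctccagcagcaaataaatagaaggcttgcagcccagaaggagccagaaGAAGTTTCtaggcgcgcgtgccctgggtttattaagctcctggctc
HSP90AA1: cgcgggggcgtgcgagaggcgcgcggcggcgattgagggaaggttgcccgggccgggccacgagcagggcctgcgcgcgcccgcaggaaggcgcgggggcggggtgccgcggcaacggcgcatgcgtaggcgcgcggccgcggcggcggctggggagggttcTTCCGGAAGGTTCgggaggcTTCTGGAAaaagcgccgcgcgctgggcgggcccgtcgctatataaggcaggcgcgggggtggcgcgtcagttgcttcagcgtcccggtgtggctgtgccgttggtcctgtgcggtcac
HSPA5: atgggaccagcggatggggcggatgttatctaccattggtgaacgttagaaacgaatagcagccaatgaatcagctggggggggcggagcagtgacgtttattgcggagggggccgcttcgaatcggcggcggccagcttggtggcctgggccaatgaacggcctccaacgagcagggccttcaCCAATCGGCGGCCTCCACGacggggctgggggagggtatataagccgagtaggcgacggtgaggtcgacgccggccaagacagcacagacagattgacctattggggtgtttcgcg

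In HSPA8, 1 array of overlapping pairs began 230 bases before the start and another 55 bases before it. DNAJB1 held pairs that began 77 and 47 bases before the start, DNAJB4 held 1 at 98 bases before it, and HSPB8 held 1 at 88 bases before the start and 1 just after it. A pair was present in 22 of the 68 members with a RefSeq window (32.4%), against 16.2% of all 27305 genes with one, searching both strands. Most of these 22 were untested or did not pass the test below. Among those that did not pass were HSP90AB1, HSPA9, HSPD1 and HSPB1, and HSPB1 had a log2 fold change, sgPARP1 over WT, of -0.23. The longer array of 3 units (GAANNTTCNNGAA or TTCNNGAANNTTC, which contains overlapping pairs) was found in 7 members, namely DNAJA1, DNAJB6, HSP90AA1, HSP90AB1, HSPA6, HSPA8 and HSPD1, or 10.3% of those matched against 0.608% of all genes. The stress element was found in HSPA5 and HSP90B1, 2.94% of members against 0.0916% of all genes. DNAJB9, the member with the largest change past the test, held none of these letters in its windows. A match describes the letters of a window and is not evidence of binding.

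The libraries held 14842498 to 17305129 reads. PARP1 itself fell from 31.6 ± 0.17 to 4.31 ± 0.083 FPKM (mean ± SD, n = 3), a log2 fold change of -2.62 by limma (adjusted p = 7.3e-07), and the exact two-sided permutation test over samples gave 0.1, the smallest value that 3 against 3 libraries allow. FPKM counts reads relative to the length of a gene and the size of a library, so it is a level per deposited gene length. Over members these lengths ran from 549 to 25053 bases. For HSPA5 (6530 bases) and HSPB1 (1623 bases) they equal the whole span from start to end. Levels, ranks and shares compared between genes below depend on these lengths. Of 16 hepatocyte markers 15 had a mean under 0.5 FPKM and 8 of them, ALB, AFP, APOB, TTR, SERPINA1, AHSG, FGB and FOXA2, were listed at 0 in all 6 libraries, so the defining markers of the labelled cell type were absent or near 0. Some genes that every cell uses were listed at 0 too, as given below for chromosome 6. The summed level of the hepatocyte markers ran from 2.71 to 3.28 FPKM in WT and from 1.61 to 2.01 FPKM in sgPARP1 libraries. Most of it was CEBPA, a hepatocyte transcription factor gene and the only marker of the list tested, which fell from 2.75 ± 0.45 to 1.70 ± 0.15 FPKM (mean ± SD, n = 3; limma, adjusted p = 0.0371, and 0.0654 to 0.117 without any 1 library other than WT replicate 3). The sum of 5 fibroblast markers ran from 18.1 to 19.9 and from 18.3 to 20.8 FPKM, with COL1A2 at 0 and most of it COL1A1. Within it DCN fell from 1.07 ± 0.081 to 0.297 ± 0.070 FPKM (limma, adjusted p = 0.00877), and PDGFRB was at 2.67 ± 0.41 and 3.43 ± 0.15 FPKM (mean ± SD, n = 3; adjusted p = 0.111 by limma, 0.0446 without WT replicate 1, and 0.0394 by voom). All 5 blood cell markers had a mean under 0.5 FPKM, with CD3E and LYZ at 0. The part of these marker levels in the chaperone results was not tested. In bulk RNA, fewer cells that express a gene and less RNA per cell cannot be told apart.

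Members took 1.79% to 1.91% of the reads of a library. Of the 76, 55 had a mean of at least 0.5 FPKM and were tested, 15 were detected below that level, and 6 were listed at 0 in all libraries. Levels covered more than 3 orders of magnitude: 8 members had a mean of at least 100 FPKM, 18 lay between 10 and 100, 28 between 1 and 10, and 1 between 0.5 and 1. HSP90AB1, the constitutive cytosolic HSP90, alone made up 38.5% to 39.3% of the summed FPKM of all members, and the 8 most abundant together 84.5% to 85.0%. These 8 were HSP90AB1, HSP90AA1, HSPA8, HSPB1, HSPA5, DNAJA1, HSPD1 and HSP90B1.

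**Figure D1:**
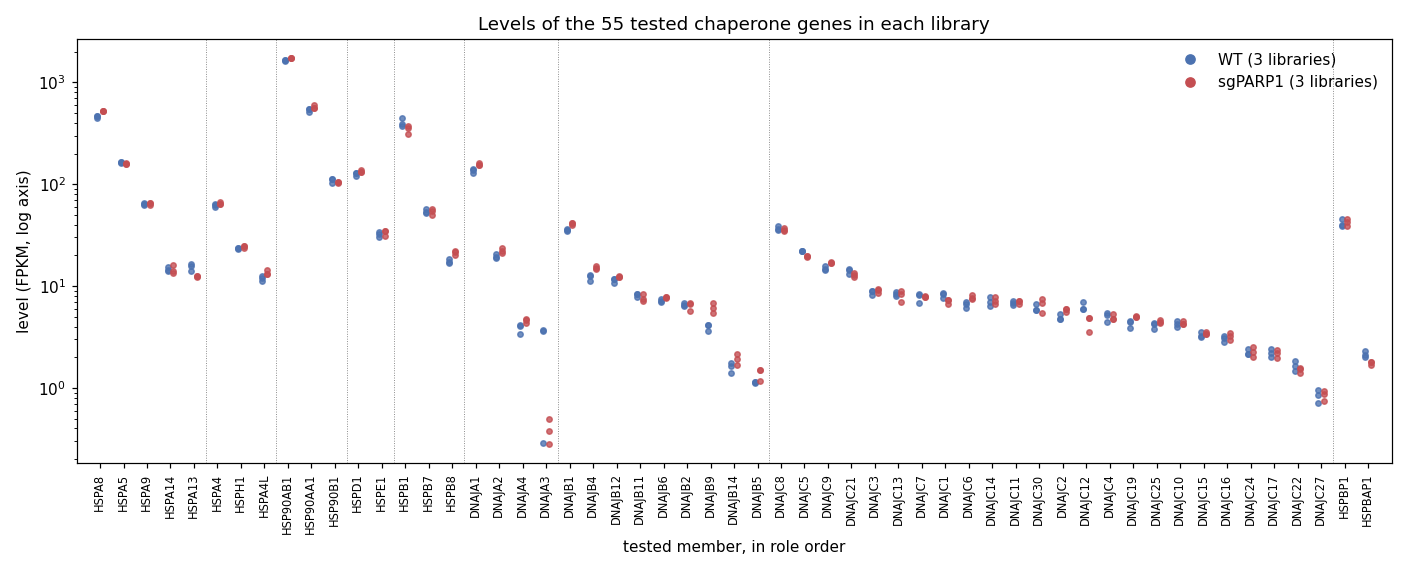
FPKM (log axis) of each of the 55 tested members in each library, in the order of their families. Points of WT (blue) and sgPARP1 (red) libraries lie close together for most genes, and DNAJA3 is the one whose WT libraries are spread over more than 10-fold.

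Tested on log2(FPKM + 1) with limma and Benjamini-Hochberg adjustment over all 13167 genes tested, 6 members were higher and 2 lower in sgPARP1 cells at an adjusted p under 0.05. This was 14.5% of the 55 members tested, against 7.96% of all genes tested, and in single directions 10.9% against 3.52% higher and 3.64% against 4.44% lower. The members that rose were HSPA8, the small heat shock protein HSPB8 and the J-domain genes DNAJA1, DNAJB1, DNAJB4 and DNAJB9. Those that fell were HSPA13 and DNAJC5. The changes were small, between 1.14-fold and 1.54-fold for the genes that rose. Without a test, 27 members (49.1%) had groups that did not overlap, 20 of them higher and 7 lower, against 31.1% of all genes tested (16.1% higher and 14.9% lower). The log2 fold change was above 0 in 36 of 55 members (65.5%) and in 50.9% of all genes tested, and its median was 0.04 over members and 0.0029 over all genes. At an unadjusted p under 0.05, 15 members were higher and 6 lower, where the shares over all genes were 12.1% and 12.3%. Voom, run on the reads recovered from the values, called 6 members higher and 3 lower, against 4.91% and 6.95% of all genes.

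Calls fell when 1 library was left out, among the 8 members and over all genes. Over all genes, 463 higher and 585 lower with 6 libraries became 184 and 229 without WT replicate 2. Without sgPARP1 replicate 1 they were 172 and 245. Among members, leaving out WT replicate 1 left 4 higher and 1 lower. Leaving out sgPARP1 replicate 2 left 3 higher and 0 lower, and sgPARP1 replicate 3 left 2 higher and 0 lower. Without WT replicate 2 or sgPARP1 replicate 1, 0 members passed, and without WT replicate 3 DNAJA3 alone did. Directions of the 8 genes held in all 14 alternatives, but most of these could not have reversed them. Groups of the 8 genes did not overlap, so leaving out 1 library could not change a direction. Other filters and the replicate block leave the log2 fold change as it is. The limma adjusted p reached 0.0701 to 0.115 in the least favourable fit of each gene that left out 1 library. With no filter on low values only DNAJB1 and DNAJC5 passed.

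**Figure D2:**
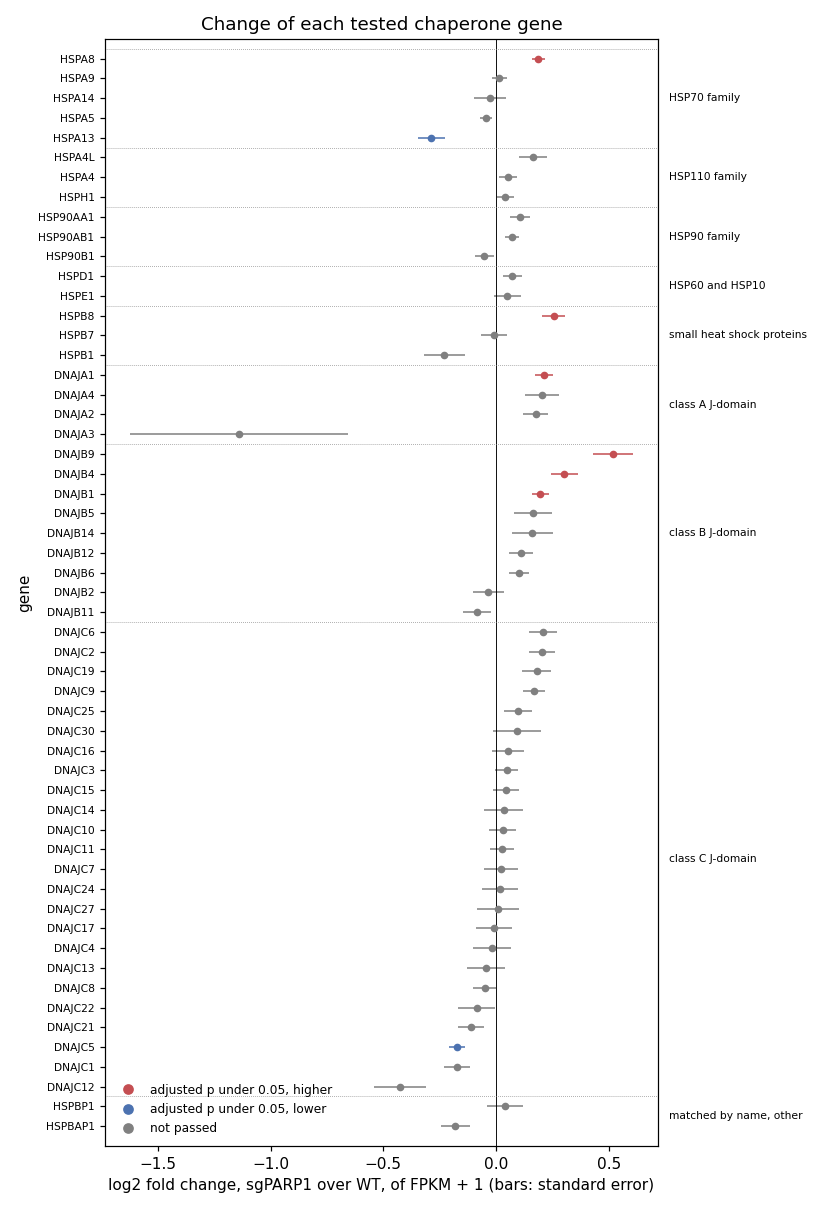
Log2 fold change of FPKM + 1, sgPARP1 over WT, for each tested member, with bars of 1 standard error and families separated by dotted lines. Red points passed at an adjusted p under 0.05 as higher, blue as lower; most of class C lies close to 0, and DNAJA3 has the widest bar.

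In the HSP70 family, 5 of 12 genes were tested and 1 rose, 1 fell and 3 did not pass. For each family here and below, shares over all genes tested were 3.52% higher, 4.44% lower and 50.9% with a log2 fold change above 0. HSPA8, the constitutive cytosolic HSP70 (ENSG00000109971, chr11:123057489-123063230 on hg38), was at 464, 469 and 452 FPKM in WT libraries and at 525, 527 and 524 FPKM in sgPARP1 libraries. Each sgPARP1 library was above each WT library, and those of the sgPARP1 group lay within a few FPKM of each other. The means of 462 ± 9.0 and 526 ± 1.4 FPKM (SD, n = 3) differed 1.14-fold, a log2 fold change of 0.19 with a standard error of 0.029 (limma, adjusted p = 0.013). With 32987 to 43796 reads per library, HSPA8 was among the most precisely counted members. Its 17 pseudogenes together had at most 0.0305% as many reads as HSPA8. Without WT replicate 2, WT replicate 3 or sgPARP1 replicate 1 the limma adjusted p was 0.0534, 0.0503 and 0.0722.

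HSPA13, a shortened HSP70 found with microsomes (ENSG00000155304, chr21:14371115-14383484), was at 14.0, 16.5 and 15.7 FPKM in WT and at 12.4, 12.5 and 12.3 FPKM in sgPARP1 libraries. The groups did not overlap, and the WT libraries were more spread than the sgPARP1 libraries. It fell to 0.806 of its WT level, a log2 fold change of -0.29 with a standard error of 0.061 (limma, adjusted p = 0.0376). It passed without WT replicate 1 (0.0174) and missed the threshold without any other single library, with limma adjusted p values of 0.0885 to 0.115. The 2 tested genes within 2 Mb of it had a median of -0.18 on that scale and neither passed.

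HSPA5, also called BiP, is the HSP70 of the endoplasmic reticulum and carries the stress element shown above. Its levels were 164, 166 and 163 FPKM in WT and 159, 159 and 160 FPKM in sgPARP1 libraries. The sgPARP1 values were all the lower ones, but the difference was only -0.04 on the log2 scale (limma, adjusted p = 0.381). HSPA9, the mitochondrial HSP70, overlapped between groups at 64.1 ± 1.0 and 64.7 ± 1.6 FPKM (mean ± SD, n = 3), with a log2 fold change of 0.01 that turned to -0.0003 without sgPARP1 replicate 1.

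The heat-inducible HSP70 genes HSPA6, HSPA1A and HSPA1B were listed at or near 0. HSPA6, which in human cells is transcribed mainly under severe stress, was at 0.5165, 0.2702 and 0.6486 FPKM in WT and at 0.3527, 0.3307 and 0.1725 FPKM in sgPARP1 libraries, 7 to 23 reads, so that the groups overlapped. HSPA1A, the main inducible HSP70, was listed at 0 in 5 libraries and had 1 read in sgPARP1 replicate 3, and its near-identical copy HSPA1B had 0 to 4 reads per library. In the segment of chromosome 6 that holds both, 56 of 70 protein-coding genes within 0.5 Mb (80.0%) were listed at 0 in every library, among them VARS1 and CSNK2B, genes that every cell uses, against 23.9% of all protein-coding genes. The values at HSPA1A and HSPA1B therefore say only that the table lists them at or near 0. HSPA1L, beside them, was listed at 0 in all libraries.

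The HSP110 family, the exchange factors of HSP70, had 3 tested genes, all with a positive log2 fold change and 0 past the test. HSPA4L was at 11.2, 12.1 and 12.6 FPKM in WT and at 13.0, 14.5 and 13.1 FPKM in sgPARP1 libraries, without overlap, and its log2 fold change of 0.16 had an adjusted p of 0.164 by limma. HSPA4 (62.2 ± 2.1 and 64.7 ± 1.8 FPKM) and the heat-inducible HSPH1 (23.5 ± 0.42 and 24.2 ± 0.64 FPKM, mean ± SD, n = 3) overlapped between groups. Their log2 fold changes were 0.05 and 0.04.

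Among the 3 HSP90 genes 0 passed. HSP90AB1 was at 1653, 1665 and 1604 FPKM in WT and at 1718, 1721 and 1730 FPKM in sgPARP1 libraries. The groups did not overlap, yet the step of 1.05-fold, a log2 fold change of 0.07 with a standard error of 0.029, did not pass (limma, adjusted p = 0.196). HSP90AA1, the inducible cytosolic form, went from 535 ± 21 to 576 ± 21 FPKM (mean ± SD, n = 3), again without overlap (log2 fold change 0.11; limma, adjusted p = 0.192). HSP90B1, the form of the endoplasmic reticulum, overlapped at 109 ± 5.3 and 105 ± 1.0 FPKM, with a log2 fold change of -0.05.

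HSPD1, the mitochondrial HSP60, and HSPE1, its HSP10 lid, are transcribed from a shared start region in opposite directions. HSPD1 was at 120.8, 130.0 and 129.7 FPKM in WT and at 132, 137 and 131 FPKM in sgPARP1 libraries, and HSPE1 at 32.35, 30.43 and 33.95 against 34.73, 34.53 and 31.01 FPKM. Values of HSPE1 overlapped between groups and those of HSPD1 did not, by a narrow margin. Their log2 fold changes were 0.07 and 0.05 (limma, adjusted p = 0.345 and 0.672). HSPE1 has 26 pseudogenes that held 2.58% to 3.86% as many reads as the gene, so reads may be split among copies. The readthrough gene HSPE1-MOB4 shares HSPE1 sequence and had at most 2 reads.

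Of 7 small heat shock protein genes 3 were tested, of which 1 rose, 0 fell and 2 did not pass. HSPB8, which works with the cochaperone BAG3 in chaperone-assisted autophagy (ENSG00000152137, chr12:119171555-119224855), was at 18.6, 17.4 and 17.0 FPKM in WT and at 21.9, 20.3 and 21.7 FPKM in sgPARP1 libraries. The groups were apart, with the lowest sgPARP1 library above the highest WT library. It rose 1.20-fold, a log2 fold change of 0.25 with a standard error of 0.051 (limma, adjusted p = 0.0298). The call ended without WT replicate 2, WT replicate 3, sgPARP1 replicate 1 or sgPARP1 replicate 3, with limma adjusted p values of 0.109, 0.095, 0.113 and 0.086. BAG3 itself was at 47.4 ± 1.8 and 46.1 ± 1.5 FPKM (mean ± SD, n = 3), with groups that overlapped.

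HSPB1, the most abundant small heat shock protein at 451, 388 and 375 FPKM in WT, was at 354, 309 and 372 FPKM in sgPARP1 libraries. Each sgPARP1 value was the lower, by a small margin for the closest pair and with wide spread in both groups. The log2 fold change of -0.23 with a standard error of 0.091 did not pass (limma, adjusted p = 0.181). HSPB7, known mainly from heart muscle, overlapped at 54.1 ± 2.6 and 53.8 ± 3.4 FPKM (mean ± SD, n = 3). HSPB6, under the level tested, was at 0.134, 0.101 and 0.077 FPKM in WT and at 0.445, 0.264 and 0.471 FPKM in sgPARP1 libraries, from 2 to 14 reads. HSPB9 was at 0.527, 0.421 and 0.484 against 0.233, 0.355 and 0.317 FPKM, on 2 to 5 reads, too few for a comparison.

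All 4 class A genes, whose proteins are built like the bacterial DnaJ, were tested: 1 rose and 3 did not pass. DNAJA1, a cytosolic partner of HSPA8 (ENSG00000086061, chr9:33025273-33039907), was at 129, 138 and 140.5 FPKM in WT and at 161, 155 and 156 FPKM in sgPARP1 libraries. The groups did not overlap and the difference of the means, 136 ± 6.0 against 158 ± 3.3 FPKM (SD, n = 3), was 1.16-fold. On the log2 scale it rose by 0.21 with a standard error of 0.041 (limma, adjusted p = 0.0274). It missed the threshold without each single library in turn, WT or sgPARP1, with limma adjusted p values from 0.0502 without WT replicate 3 to 0.111 without sgPARP1 replicate 1. DNAJA2, its cytosolic paralog, was at 19.5, 20.7 and 18.9 against 22.0, 23.8 and 21.3 FPKM, apart but not past the test (log2 fold change 0.17; limma, adjusted p = 0.113).

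DNAJA3, the mitochondrial class A protein also known as Tid1, differed among WT libraries more than between groups. Its levels were 3.65, 3.71 and 0.291 FPKM in WT and 0.3795, 0.2845 and 0.4925 FPKM in sgPARP1 libraries, that is 31 to 453 reads. WT replicate 3 lay among the sgPARP1 libraries, and the other WT libraries were more than 7-fold above all of them. The log2 fold change of -1.14 had a standard error of 0.48 (limma, adjusted p = 0.207), and without WT replicate 3 it was -1.76 with an adjusted p of 0.00155. NMRAL1, the next of the genes looked up beside it on chromosome 16, was at 0.659, 0.321 and 0.116 FPKM in WT and at 0.391, 0.814 and 0.152 FPKM in sgPARP1 libraries, with groups that overlapped. HMOX2, a heme oxygenase gene that overlaps NMRAL1, was also uneven within a group, at 0.274, 0.240 and 1.24 FPKM in WT and at 4.24, 0.173 and 0.361 FPKM in sgPARP1 libraries. The cause of these levels was not tested.

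Class B, whose proteins lack the zinc-finger region of class A, had 12 members, of which 9 were tested. Of these, 3 rose and 6 did not pass, against 3.52% higher among all genes tested. The log2 fold change was positive in 7 of 9, against 50.9% of all genes tested, with a class median of 0.16. DNAJB9, an endoplasmic reticulum protein also called ERdj4 that binds BiP and is induced by the unfolded protein response (ENSG00000128590, chr7:108569867-108574850), was at 3.58, 4.17 and 4.13 FPKM in WT and at 6.07, 6.85 and 5.42 FPKM in sgPARP1 libraries. All sgPARP1 libraries were above all WT libraries. The means of 3.96 ± 0.33 and 6.11 ± 0.72 FPKM (SD, n = 3) differed 1.54-fold, which was the largest rise among tested members, on 157 to 268 reads. On the log2 scale the rise was 0.52, standard error 0.089 (limma, adjusted p = 0.0188). Without sgPARP1 replicates 2 or 3 it still passed, and without WT replicates 1, 2 or 3 or sgPARP1 replicate 1 the limma adjusted p was 0.059, 0.0577, 0.0526 and 0.0701. The 10 tested genes within 2 Mb of it on chromosome 7 had a median log2 fold change of 0.15. Of these, 1 was higher and 0 lower, against 3.52% and 4.44% of all genes tested. The part of this neighbourhood in the DNAJB9 value was not tested.

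DNAJB4 (ENSG00000162616, chr1:77979175-78017964), a heat-inducible cytosolic partner of HSP70, was at 11.23, 12.72 and 12.65 FPKM in WT and at 15.20, 15.83 and 14.79 FPKM in sgPARP1 libraries. The groups were clearly apart. It rose 1.25-fold, with a log2 fold change of 0.30 and a standard error of 0.058 (limma, adjusted p = 0.0263). It still passed without WT replicate 1 (0.0483), and the largest limma adjusted p, 0.0923, came without sgPARP1 replicate 1, with 0.0578 to 0.0745 without WT replicates 2 or 3 or sgPARP1 replicates 2 or 3.

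DNAJB1, the HSP40 of the cytosol and a classical heat shock gene (ENSG00000132002, chr19:14514769-14560391), was at 36.4, 34.6 and 35.3 FPKM in WT and at 39.5, 41.2 and 41.5 FPKM in sgPARP1 libraries. These groups did not overlap either. It rose 1.15-fold, with a log2 fold change of 0.20 and a standard error of 0.038 (limma, adjusted p = 0.0278). It passed without WT replicate 1 and missed the threshold without any other single library, with limma adjusted p values of 0.0704 to 0.11. The remaining tested class B genes were DNAJB2, DNAJB5, DNAJB6, DNAJB11, DNAJB12 and DNAJB14, at 1.13 to 11.4 FPKM in WT.

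Neighbours within 2 Mb of the other genes that rose were also read. Their median log2 fold change was -0.0047 around HSPA8 (15 tested, 3 higher and 3 lower). It was -0.02 around DNAJA1 (32 tested, 0 higher and 0 lower) and -0.04 around DNAJB1 (60 tested, 1 higher and 4 lower). Around HSPB8 it was 0.02 (37 tested, 2 higher and 1 lower) and around DNAJB4 0.06 (12 tested, 2 higher and 0 lower). Shares over all genes tested were 3.52% higher and 4.44% lower.

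**Figure D3:**
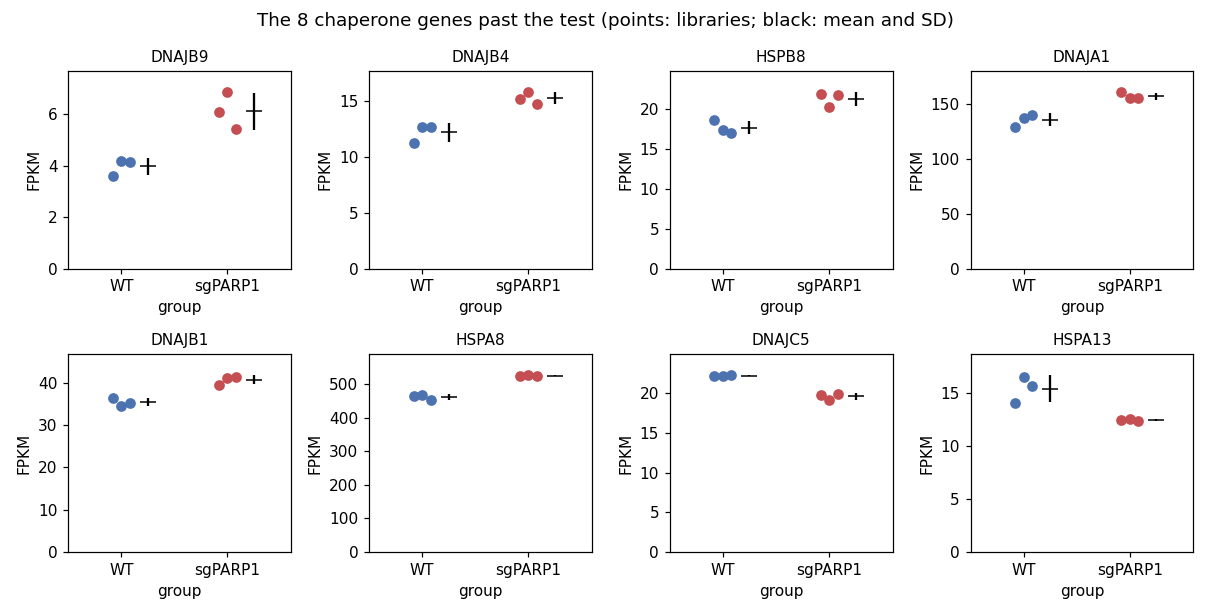
FPKM of the 8 members past the test in each WT (blue) and sgPARP1 (red) library, with the mean and SD of 3 libraries in black and each axis starting at 0. In every panel the groups are apart, with DNAJB9 at 3.58 to 4.17 against 5.42 to 6.85 FPKM showing the largest ratio.

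Class C is a mixed class defined by the J-domain alone. Of 28 genes 24 were tested, 0 rose, 1 fell and 23 did not pass, with 15 positive and 9 negative log2 fold changes and a median of 0.02. DNAJC5, the cysteine string protein that guards exocytosis (ENSG00000101152, chr20:63895126-63936031), was at 22.2, 22.2 and 22.3 FPKM in WT and at 19.8, 19.2 and 19.9 FPKM in sgPARP1 libraries. The WT libraries were nearly equal and all above the sgPARP1 libraries. It fell to 0.882 of its WT level, a log2 fold change of -0.17 with a standard error of 0.035 (limma, adjusted p = 0.0314). Without each library in turn, WT or sgPARP1, the limma adjusted p lay between 0.0704 and 0.11. Of 52 tested genes within 2 Mb of it on chromosome 20, 5 were lower and 0 higher, against 4.44% and 3.52% of all genes tested. The 52 had a median log2 fold change of -0.08. The part of this neighbourhood in the DNAJC5 value was not tested.

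DNAJC12, a cochaperone of the aromatic amino acid hydroxylases, was at 5.90, 5.95 and 7.02 FPKM in WT and at 4.87, 3.58 and 4.88 FPKM in sgPARP1 libraries. Its groups were apart, but at a log2 fold change of -0.43 with a standard error of 0.11 and 118 to 226 reads it did not pass (limma, adjusted p = 0.0733). It did pass with voom on the recovered reads (adjusted p = 0.0344) and among genes of at least 5 FPKM (limma, adjusted p = 0.0351). DNAJC6, also called auxilin, which uncoats clathrin vesicles with HSPA8, was at 6.59 ± 0.48 against 7.76 ± 0.36 FPKM (log2 fold change 0.21; limma, adjusted p = 0.0993). DNAJC2, which acts at the ribosome, was at 4.95 ± 0.32 against 5.85 ± 0.20 FPKM (mean ± SD, n = 3; log2 fold change 0.20; limma, adjusted p = 0.0826). DNAJC8, a protein found with spliceosomes and the most abundant of the class, overlapped at 37.0 ± 2.1 and 35.6 ± 1.2 FPKM.

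The 5 remaining members fit the name rule without being chaperones of these families. HSPBP1, an exchange factor of HSP70, was at 41.4 FPKM and HSPBAP1, a protein that binds HSPB1, at 2.13 FPKM in WT, and neither passed. The readthrough genes HSPE1-MOB4 and DNAJC25-GNG10 had at most 2 reads in a library, and HSPB2-C11orf52 was listed at 0. The others listed at 0 in all libraries were HSPA1L, HSPB2, DNAJC5B, DNAJC18 and DNAJC28.

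Grouped by place in the cell, 10 members of the endoplasmic reticulum had 1 higher (DNAJB9), 1 lower (HSPA13) and 8 not past the test, with 5 positive and 5 negative log2 fold changes and a median of -0.01. The 8 tested mitochondrial members had 0 past the test and a median of 0.05, and 7 of them were positive, DNAJA3 being the other. Of 14 genes listed as classically heat-inducible, 11 were tested, 4 were higher (HSPA8, DNAJA1, DNAJB1 and DNAJB4) and 0 lower, and the median log2 fold change was 0.11. HSPB1 was the one with a negative value, and groups did not overlap in 9 of the 11. At an unadjusted p under 0.05, 7 of them were higher and 1 lower, and voom called 4 higher and 0 lower. Over all genes tested the shares were 3.52% higher and 4.44% lower by limma, 31.1% without overlap, and 12.1% and 12.3% at an unadjusted p under 0.05. The list holds HSPA8 and HSP90AB1, which are also made at high level without heat, so 1 of its 4 calls is a constitutive gene. It was drawn up with earlier results of these libraries known, so its direction is no independent evidence.

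Summed over all 76 members, the level was 4236, 4268 and 4166 FPKM in WT and 4388, 4375 and 4401 FPKM in sgPARP1 libraries, a ratio of 1.04 without overlap. Most of this sum is HSP90AB1, HSP90AA1 and HSPA8. The sum of the HSP70 family was 721 ± 11 against 778 ± 2.7 FPKM (ratio 1.08), of the HSP90 family 2284 ± 37 against 2403 ± 21 FPKM (1.05), of class A 162 ± 5.6 against 185 ± 2.9 FPKM (1.14) and of class B 87.8 ± 0.99 against 99.8 ± 0.73 FPKM (1.14), each as mean ± SD of 3 libraries and each without overlap. Sums of the HSP110 family, of HSP60 with HSP10 and of class C overlapped between groups, at ratios of 1.05, 1.05 and 0.991. The sum of the small heat shock proteins, most of it HSPB1, had a ratio of 0.882 and overlapped as well.

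**Figure D4:**
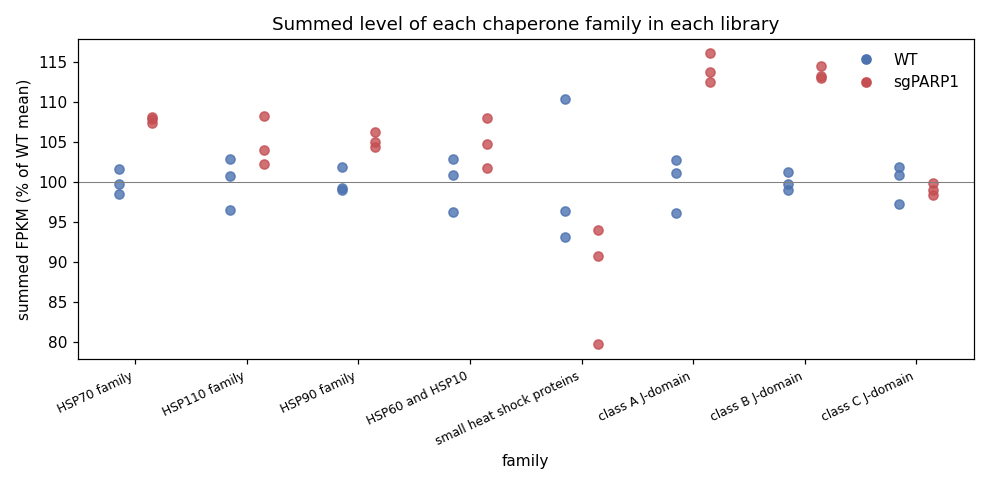
Summed FPKM of each family in each library as a percentage of the WT mean of that family, with the WT mean at 100 as a line; the axis does not start at 0. Points of class A, class B, HSP70 and HSP90 are separated between WT (blue) and sgPARP1 (red), while HSP110, HSP60 with HSP10, small heat shock proteins and class C overlap.

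Genes that work with these chaperones but are not members were read from 7 lists: of 52 tested, 3 were higher and 0 lower (5 and 5 at an unadjusted p under 0.05), with a median log2 fold change of -0.01. Over all genes tested the shares were 3.52% higher, 4.44% lower, and 12.1% and 12.3% at an unadjusted p under 0.05, so these counts lie near the background. HSF1 had 1 read in 1 of the 6 libraries and was listed at 0 in the others. As for HSPA1A and HSPA1B, this says only how HSF1 is listed, and the same holds for CCT8 below. Of all protein-coding genes 23.9% were listed at 0 in every library. HSF2, a second heat shock factor, was at 9.03 ± 0.093 and 10.1 ± 0.36 FPKM (mean ± SD, n = 3; limma, adjusted p = 0.0962). Among the exchange factors and cochaperones of HSP70, BAG2, which restrains the ubiquitin ligase STUB1, rose alone of 11, from 14.7, 15.5 and 15.4 to 18.0, 17.6 and 18.2 FPKM (log2 fold change 0.22; limma, adjusted p = 0.0215). Of 7 tested subunits of the TRiC chaperonin, which folds actin and tubulin, CCT6A rose from 265 ± 7.7 to 303 ± 8.2 FPKM (limma, adjusted p = 0.0263) and CCT4 from 128 ± 1.9 to 141 ± 2.3 FPKM (mean ± SD, n = 3; limma, adjusted p = 0.0422), while CCT8 had 1 read in 2 libraries. Without each library in turn, WT or sgPARP1, both TRiC calls ended, with adjusted p values of 0.0518 to 0.0991 and of 0.0733 to 0.131, and BAG2 held only without sgPARP1 replicate 2 (0.0451), with up to 0.0914 otherwise.

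In the lists for HSP90 cochaperones (12 tested), prefoldin (4), endoplasmic reticulum folding partners (10) and mitochondrial folding partners (5), 0 genes passed by limma. Their most abundant genes were PTGES3, the p23 cochaperone (195 and 209 FPKM), PFDN2 (110 and 106 FPKM), the lectin chaperone CALR (610 and 587 FPKM) and the protease LONP1 (76.2 and 67.4 FPKM), as means of 3 WT and 3 sgPARP1 libraries. At an unadjusted p under 0.05 the counts of higher and lower genes were 1 and 1, 0 and 0, 0 and 2, and 0 and 1 in the same order. By voom they were 0 and 0, 0 and 0, 0 and 1, and 0 and 1. Of the 10 folding partners of the endoplasmic reticulum, 9 had a negative log2 fold change, with a median of -0.05. Over all genes tested, 50.9% had a log2 fold change above 0.

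**Figure D5:**
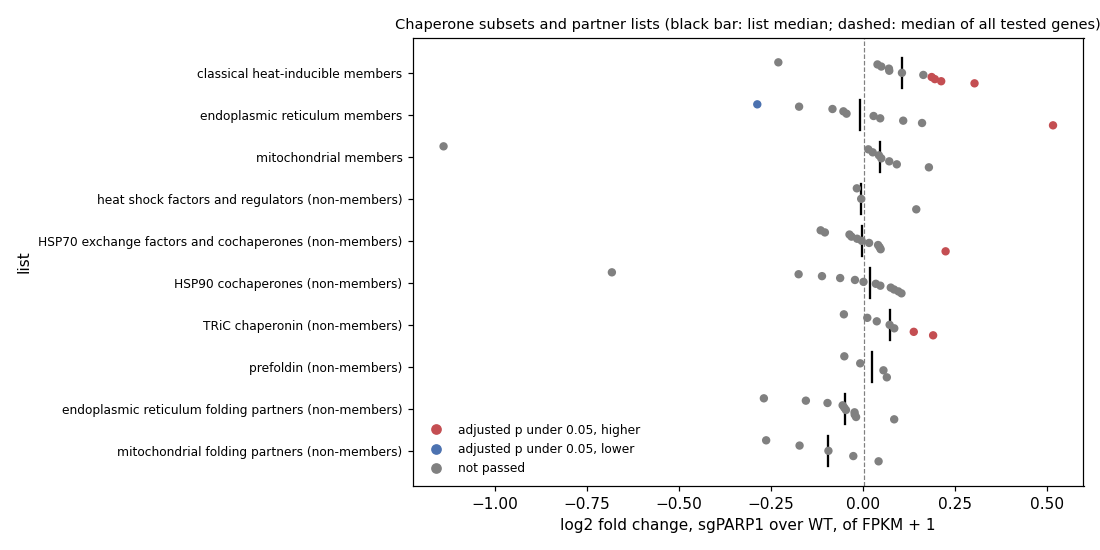
Log2 fold change of FPKM + 1, sgPARP1 over WT, of each tested gene in 3 subsets of the members and in 7 lists of partner genes, with the list median as a black bar and the median of all tested genes as a dashed line. Genes past the test as higher are red and as lower blue; they are 4 in the classical heat-inducible subset, 2 in that of the endoplasmic reticulum and 3 among the partners.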

How the data were processed

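RNA of 3 WT and 3 sgPARP1 libraries made with a messenger RNA kit, per the labels' protocols, was measured by sequencing. The authors deposited 1 table of FPKM, reads per gene length and effective library size, with gene length in bases as another deposited column. Genome builds named in the submitters' processing notes are GRCm38, hg38 and mm10, with none tied to a step. Aligner, counter and use of strand were not given in the sources used here, so reads of near-identical, readthrough or overlapping genes cannot be told apart. Coordinates are those deposited, on hg38.

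FPKM times length gave whole reads in all 6 libraries, 100% of values up to 200 reads within 0.02 of a whole number, and 14842498 to 17305129 reads each. The main test was limma 3.58.1 (R 4.3.3) with a trend on log2(FPKM + 1), a pseudocount of 1, for genes averaging at least 0.5 FPKM, two-sided, with Benjamini-Hochberg adjustment at 0.05. Folds are ratios of mean FPKM, and log2 fold changes on the tested scale understate those of low genes. The median standard error over members was 0.079 at 0.5 to 5 FPKM, 0.0615 at 5 to 20 and 0.0414 from 20 FPKM on. The fit was run before use on simulated data with rises larger than most changes called among members. It therefore does not show how well changes of their size are recovered. Alternatives were a pseudocount of 0.1, other filters, TPM, median-of-ratios scaling, voom on recovered reads, a replicate block, leaving out each library and, chosen after seeing the data, scaling to total recovered reads. Voom on these reads called 6 members higher and 3 lower, and 646 and 915 of all genes. Sums over members carry no test.

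Members and lists were chosen with earlier results of these data known. Genes named with statistics are the members past the test, the 10 most abundant, the 2 most abundant of each family, the heat-inducible ones, and the 5 largest changes that did not pass. For partners they are those past the test in each list, otherwise the most abundant. HSF1, CCT8, BAG3, HMOX2, NMRAL1, DCN, PDGFRB, HSPB6, HSPB9, VARS1 and CSNK2B were named after their values were seen. Promoters come from RefSeq (GRCh38.p14), which matched 68 of 76 members by symbol.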

Additional observations from a re-analysis of the deposited data

How the results depend on the processing

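Counts of members past the test moved more than values. With no filter on low values they were 1 higher and 1 lower, and over fits without 1 library 0 to 4 higher and 0 to 1 lower. Over all genes the counts without a filter were 278 higher and 309 lower, with voom 915 lower, and without 1 library 172 to 285 higher and 229 to 373 lower. Partner genes were 1 higher with no filter, 0 to 1 higher and 0 to 1 lower without 1 library, and 1 lower with a mean of at least 5 FPKM, with TPM and with total recovered reads, and 2 lower with voom. A pseudocount of 0.1, TPM, median-of-ratios scaling and total recovered reads left 6 members higher and 2 lower, the median-of-ratios factors being equal between libraries (1.004).

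Same-numbered WT and sgPARP1 libraries correlated at 0.04, 0.08 and -0.03 in their deviations from the group mean. Differently numbered ones ran from -0.10 to 0.06. With 3 libraries per group these values cannot tell whether the numbers pair them. With the replicate number as a block, 1 member was higher and 0 lower, 232 genes were higher and 318 lower, and 0 partner genes were higher.

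The values for HSPB7 reversed without WT replicate 1 (0.0266) and without sgPARP1 replicate 2 (0.0391), over a range of -0.0518 to 0.0391 without 1 library, and that of HSPA9 without sgPARP1 replicate 1 (-0.0003), over -0.0003 to 0.0348. The cause was not tested. Of the other values of single genes under an alternative, 450 kept direction and side of the threshold, 80 no longer passed and 7 newly passed. Genes averaging under 5 FPKM have no value with that filter, nor has CHORDC1 without WT replicate 3. The sums over all members and over the heat-inducible list kept their direction under TPM, median-of-ratios scaling, total recovered reads and without each library. Groups did not overlap in these sums, so leaving out 1 library could not have reversed them. The sums of single families were not recomputed.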

Other observations

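IFT25 lies outside the name rule but carries the RefSeq synonym HSPB11, and was looked up after the small heat shock proteins had been described, with its values seen first. It was at 11.99, 14.34 and 14.4 FPKM in WT and at 20.3, 20.1 and 20.4 FPKM in sgPARP1 libraries, without overlap. On the log2 scale it rose by 0.55, standard error 0.071 (limma, adjusted p = 0.00669), and it passed without each library in turn, with adjusted p values of 0.00459 to 0.0348. IFT25 is a subunit of the intraflagellar transport machinery of cilia. The 36 tested genes within 2 Mb of it had a median log2 fold change of 0.07. Of these, 2 were higher and 1 lower, against 3.52% and 4.44% of all genes tested.

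CHORDC1, an HSP90 cochaperone named for its values, was uneven within WT, at 1.36, 0.0886 and 2.47 FPKM, and at 0.213, 0.240 and 0.434 FPKM in sgPARP1 libraries. WT replicate 2 was the lowest of all 6 libraries. Its log2 fold change of -0.68 did not pass (limma, adjusted p = 0.341), and without WT replicate 2 it was -1.15 (adjusted p = 0.0411). It passed in no other fit without 1 library, with a limma adjusted p of up to 0.542, nor by voom (adjusted p = 0.569). Without WT replicate 3, its highest library, it fell under the level tested.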
